A study of Mus musculus with 15 samples.

Results

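The transcripts of 38 genes that mark macrophages or their activation states were followed in adipose tissue of mice that were wild type or labelled as lacking interleukin-33 (IL-33). The genes were taken by symbol from a list of known macrophage genes. All 38 were found among the 37991 gene identifiers of the deposited count table. They comprise lineage regulators and the growth factor signal (4 genes), core macrophage genes (10), Fc, scavenger and clearance receptors (7), the complement C1q chains (3), alternative activation genes (6), tissue residence genes (3), genes of lipid-associated macrophages (3) and chemokine receptors (2).

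Polyadenylated RNA of whole tissue was sequenced in 4 groups of C57BL/6 mice, 15 libraries in all. Brown adipose tissue was taken at postnatal day 0.5 from wild-type mice (4 libraries) and from mice labelled IL-33-/- (4 libraries). Inguinal white adipose tissue was taken at postnatal day 24 from wild-type mice (4 libraries) and from IL-33-/- mice (3 libraries, numbered 2 to 4). The labels give no other allele or treatment, do not say which part of Il33 was deleted, and do not say whether each library came from a separate animal. The p-values therefore cover only library-to-library spread, part or all of which may be technical. Tissue and age changed together, so they cannot be told apart.

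Macrophages depend on signalling through the receptor CSF1R and on the transcription factor PU.1, and adipose tissue holds a resident population that clears dying cells and stray lipid. Under the type 2 cytokines IL-4 and IL-13, acting through STAT6, they take on a state called alternative activation, marked in mice by Retnla, Arg1, Chil3, Mrc1, Clec10a and Mgl2. IL-33 is an alarm cytokine that acts through the receptor ST2 on innate lymphoid cells, regulatory T cells and mast cells, which can supply those type 2 cytokines. The series title places IL-33 and ST2 beside uncoupled respiration in beige and brown adipocytes.

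Total counts per library ran from 26059635 to 53923009. Levels below are CPM, reads of a gene relative to the library total, scaled by TMM, a factor that corrects for library composition, and are listed in the order of the library numbers. Il33 itself checked the labels. In inguinal fat its level was 3.50, 4.65, 3.77 and 3.60 CPM in wild type and 0.345, 0.470 and 0.0798 CPM in the knockout in libraries 2 to 4, and it fell by 3.73 on the log2 scale. Every knockout library there was far below wild type. In brown fat it was 1.81, 3.17, 2.01 and 1.73 CPM in wild type and 0.408, 1.72, 1.42 and 0.591 CPM in the labelled knockout. Those brown values did not pass the test (adjusted p = 0.229, edgeR), so Il33 does not settle the brown labels, and that group is called the labelled knockout throughout. Labelled knockout library 1 stood apart from the other 3 of its group: its chi-square per degree of freedom against them was 137 to 199. Those 3 differed from each other by 20.9 to 48.5. The wild-type brown libraries were not uniform either: libraries 1 and 2 differed by 22.1 and libraries 3 and 4 by 16.9. Between these pairs the values were 65.3 to 84.2. Summed adipocyte markers stood at 11856 to 16129 CPM in wild-type brown and 21103 to 24000 CPM in wild-type inguinal tissue, and summed brown adipocyte markers at 5416 to 9643 and 1324 to 1935 CPM.

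In inguinal fat without IL-33, 9 of the 38 macrophage genes passed, 2 higher and 7 lower, and they fell in 5 of the 8 roles. Both chemokine receptors fell (Ccr2 and Cx3cr1), as did the integrin Itgam, the actin-bundling protein Aif1, the lipopolysaccharide co-receptor Cd14, the lectin Mgl2 and the tetraspanin Cd9. Chil3 and Gpnmb rose. Most defining macrophage genes (Csf1r, Adgre1, Cd68, Lyz2, Mertk and the C1q chains) did not pass the test. Fewer macrophages and less RNA per macrophage cannot be told apart in RNA of whole tissue.

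A gene was counted as passing when edgeR's quasi-likelihood F-test gave an adjusted p (Benjamini-Hochberg, over all genes tested) below 0.05. By this rule 2 members rose and 7 fell among 38 tested, which is 23.7% of them. Of all 15710 genes tested in inguinal fat, 28.6% passed (15.3% higher, 13.3% lower), so the share among the macrophage genes was not above that of all genes. At an unadjusted p below 0.05 there were 10 members, beside 39.9% of all genes. DESeq2 called 10 members (30.9% of all genes) and limma-voom with library quality weights 8 (25.8%). Their median log2 change in edgeR was -0.14, beside -0.02 over all genes. For 31 of the 38 the 95% interval lay within 1 log2 unit of no change, and 27 of these did not pass. The groups did not overlap for 10 members (3 higher, 7 lower), against 36.8% of all genes tested. With all 4 groups in 1 fit, which share an estimate of the spread, Chil3 and Gpnmb alone passed. With 1 library left out, 4 to 10 members passed (4 without knockout library 3, 5 without wild-type library 2 or 3). The shares of all genes in these last fits are not given here, so their counts are not set against a background.

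**Figure D1:**
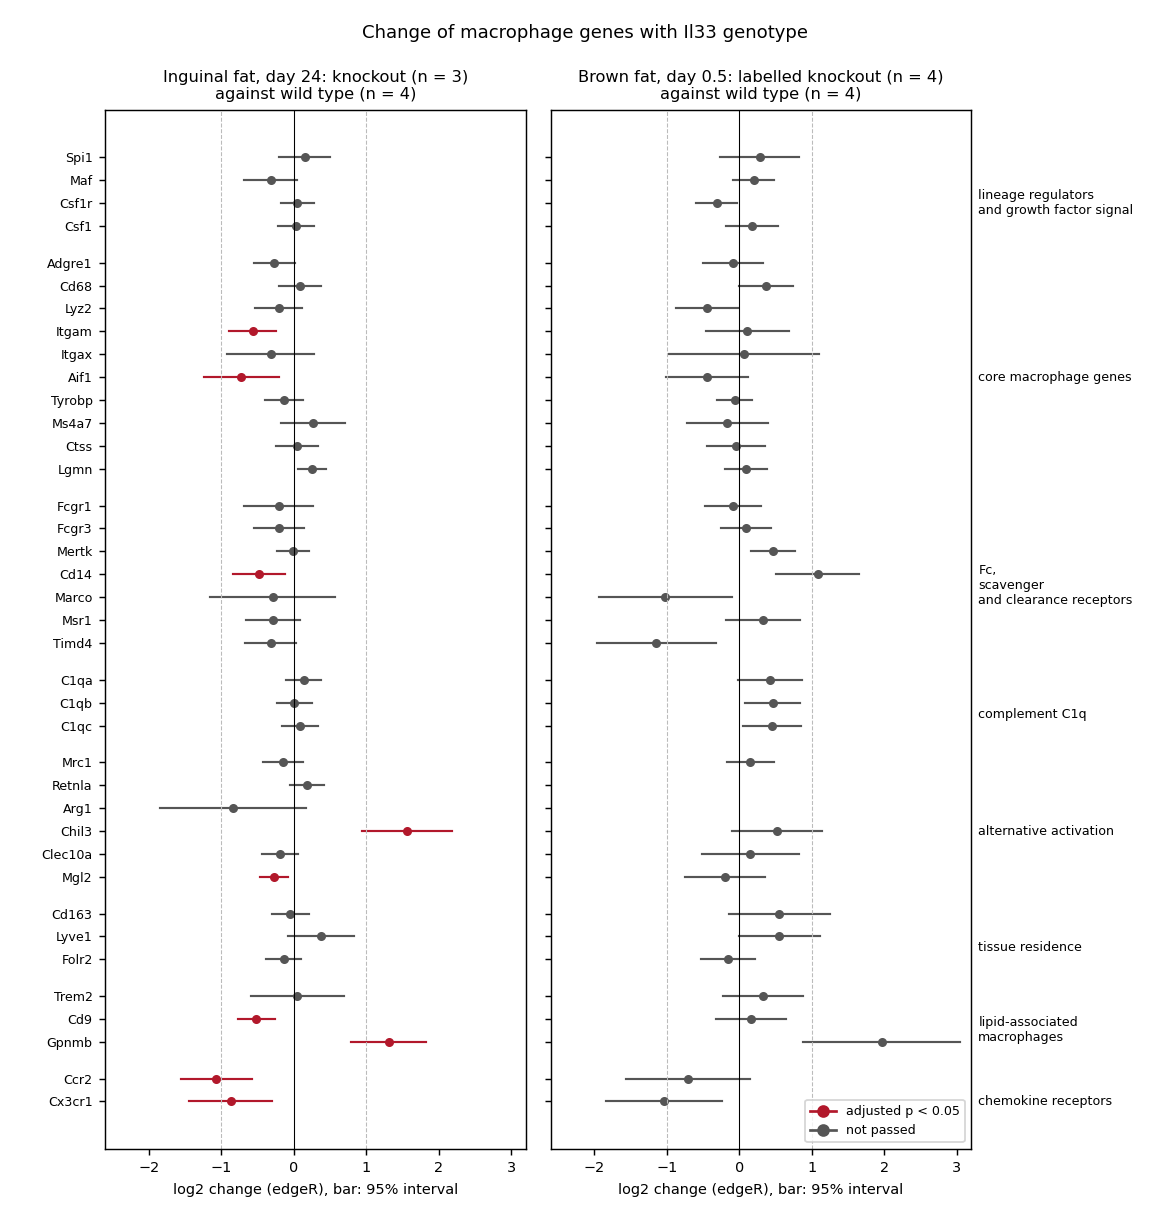
Log2 change of each macrophage gene with its 95% interval (x axis), grouped by role, for inguinal fat (left, knockout n = 3, wild type n = 4) and brown fat (right, labelled knockout n = 4, wild type n = 4). Red marks an adjusted p below 0.05 in edgeR: 9 members passed in inguinal fat and 0 of 36 in brown fat, where Retnla and Arg1 were too low to test.

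Ccr2 encodes the receptor by which monocytes leave the bone marrow and enter tissue. Its level was 11.3, 15.7, 13.1 and 15.4 CPM in the 4 wild-type inguinal libraries and 3.76, 7.22 and 8.57 CPM in the 3 knockout libraries. Every knockout library lay below every wild-type library. The mean went from 13.9 ± 2.07 to 6.52 ± 2.48 CPM (mean ± SD), a 2.09-fold fall (log2 change -1.07, SE 0.22, adjusted p = 0.00414, edgeR). Cx3cr1, the fractalkine receptor of patrolling monocytes and some resident macrophages, was 1.95, 2.27, 2.68 and 1.91 CPM in wild type and 1.62, 0.839 and 1.09 CPM in the knockout. These groups did not overlap either, although the gap between the nearest libraries was narrow. The fall was 1.83-fold (log2 change -0.87, SE 0.27, adjusted p = 0.0258, edgeR). It lost its call in 4 of the 7 fits with 1 library left out (adjusted p 0.0546 without wild-type library 2, 0.0693 without wild-type 3, 0.114 without knockout 3 and 0.0729 without knockout 4). Ccr2 passed in each of those 7 fits.

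Among the core macrophage genes, Itgam and Aif1 fell. Itgam encodes the alpha chain of complement receptor CR3, also called CD11b, which monocytes, macrophages and neutrophils carry. It stood at 13.5, 21.4, 14.8 and 19.7 CPM in wild type and 11.2, 10.8 and 12.6 CPM in the knockout. The 3 knockout libraries were close together and below all of wild type, where libraries 2 and 4 were the highest (log2 change -0.57, SE 0.15, adjusted p = 0.0129, edgeR). The call was lost without knockout library 3 (adjusted p 0.0614). Aif1, which encodes IBA1, was 3.84, 4.80, 4.71 and 3.71 CPM in wild type and 2.38, 1.54 and 3.65 CPM in the knockout. Its groups touched without overlapping, with knockout library 4 just under wild-type library 4 (log2 change -0.72, SE 0.24, adjusted p = 0.0378, edgeR). It lost its call without wild-type library 2 or 3 or knockout library 2 or 3, with adjusted p from 0.0819 to 0.156.

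The other 8 core genes did not pass in inguinal fat. Adgre1, the F4/80 antigen used to gate mouse macrophages, was 17.2, 23.9, 17.9 and 19.0 CPM in wild type and 13.6, 16.5 and 17.9 CPM in the knockout (log2 change -0.27, SE 0.13, adjusted p = 0.143, edgeR). Wild-type libraries 2 and 4 stood above the knockout and the other 2 did not. Cd68, a lysosomal glycoprotein, had a log2 difference of 0.09 (95% interval -0.20 to 0.38). Lyz2, lysozyme of myeloid cells, had -0.21 (interval -0.53 to 0.12), Tyrobp, the signalling adaptor of TREM2, -0.13 (-0.40 to 0.13), and Ctss, cathepsin S, 0.04 (-0.24 to 0.33). Itgax, the CD11c integrin of dendritic cells and some macrophages, and Ms4a7, a tetraspan membrane protein of macrophages, had wider intervals (-0.91 to 0.28 and -0.17 to 0.71). Lgmn, the lysosomal protease legumain, came nearest to the threshold: it was 69.3, 79.5, 71.3 and 81.7 CPM in wild type and 94.7, 85.6 and 85.04 CPM in the knockout. Its groups did not overlap and its adjusted p was 0.0522 (edgeR).

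No lineage regulator or growth factor gene passed. Csf1r, the receptor for CSF1 and IL-34, was 49.3, 60.1, 56.2 and 48.5 CPM in wild type and 57.6, 47.6 and 58.6 CPM in the knockout, a log2 difference of 0.05 with an interval of -0.18 to 0.27. The libraries of both groups were interleaved. Its ligand Csf1 differed by 0.03 (interval -0.22 to 0.28), Spi1, which encodes PU.1, by 0.15 (-0.20 to 0.50), and the transcription factor Maf by -0.32 (-0.68 to 0.04). Knockout library 2 was the lowest for Maf, at 22.4 CPM.

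Of the receptors, Cd14 alone passed in inguinal fat. Its level was 10.9, 9.57, 11.4 and 7.12 CPM in wild type and 6.82, 6.14 and 7.69 CPM in the knockout. Wild-type library 4 lay inside the knockout range while the other 3 lay above it (log2 change -0.47, SE 0.17, adjusted p = 0.0478, edgeR). This was the least stable of the 9 calls: it was lost in 6 of the 7 fits with 1 library left out, the exception being the fit without wild-type library 4, with adjusted p from 0.0546 to 0.167. Mertk, which recognises dying cells, differed by -0.01 on the log2 scale (interval -0.23 to 0.21). The Fc receptors Fcgr1 and Fcgr3 differed by -0.21 and -0.20. The scavenger receptors Msr1 and Marco differed by -0.29 and -0.29, and Marco had 70 counts in wild type and 35 in the knockout. Timd4, the phosphatidylserine receptor of long-lived resident macrophages, was 5.71, 8.35, 5.47 and 6.88 CPM in wild type and 5.44, 5.34 and 4.92 CPM in the knockout. Its groups did not overlap by a narrow margin, and its adjusted p was 0.169 (edgeR).

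The C1q chains, which form the recognition subunit of the classical complement pathway and are made largely by tissue macrophages, did not pass. C1qa, C1qb and C1qc differed by 0.14, 0.01 and 0.09 on the log2 scale, with intervals of -0.11 to 0.38, -0.23 to 0.25 and -0.16 to 0.34. C1qb was 48.9, 61.2, 50.9 and 51.2 CPM in wild type and 56.4, 43.8 and 58.0 CPM in the knockout. The groups overlapped for all 3 chains.

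**Figure D2:**
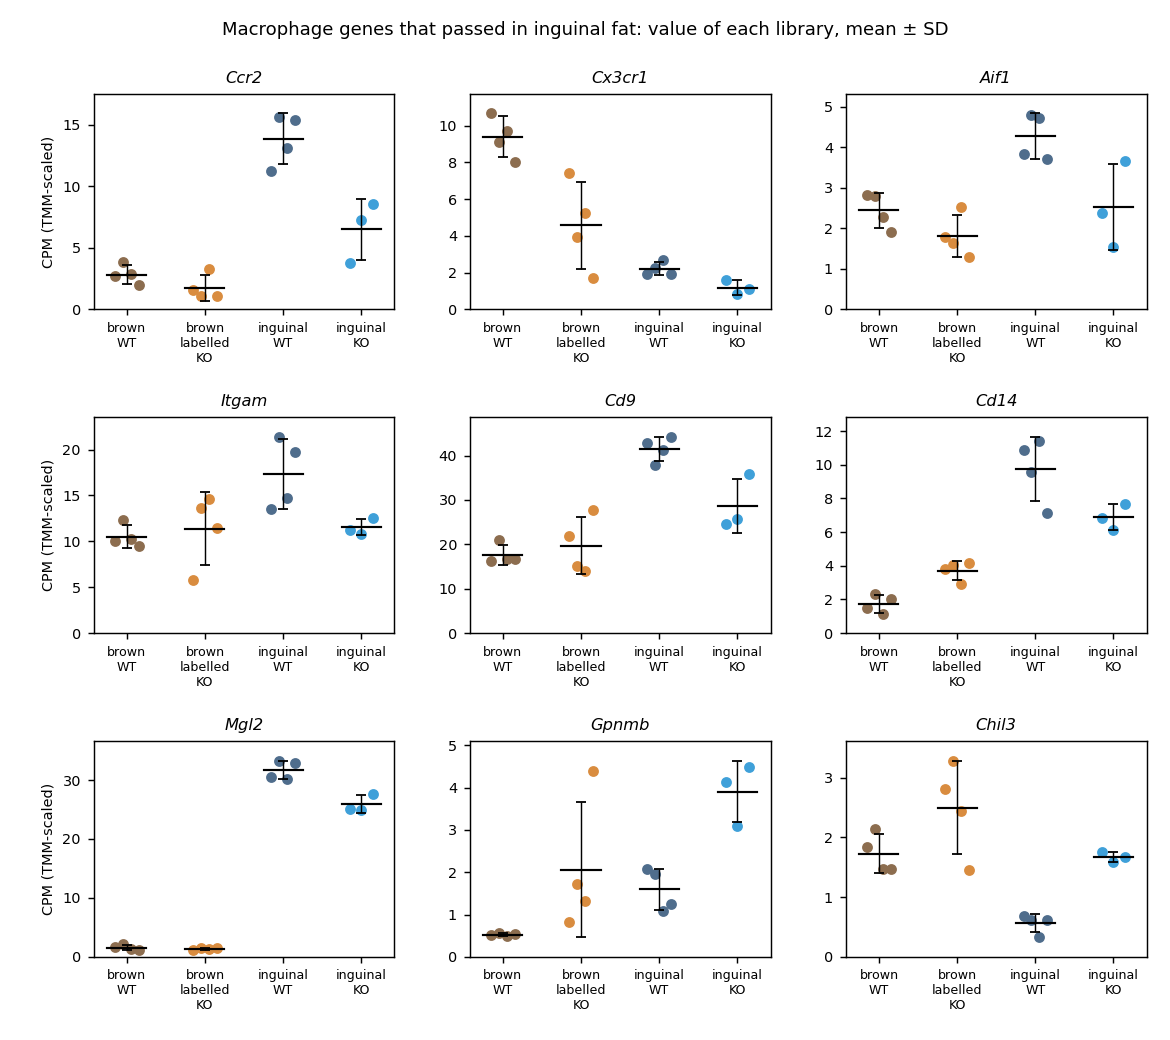
Level of the 9 members that passed in inguinal fat, in each library of all 4 groups (y axis, TMM-scaled CPM from 0), with the mean and SD of each group. Ccr2 and Cd9 were lower in each inguinal knockout library than in any inguinal wild-type library, and Chil3 and Gpnmb were higher.

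The alternative activation genes did not move together in inguinal fat: of 6, Chil3 rose, Mgl2 fell and 4 did not pass, with a median log2 change of -0.17. Chil3, the chitinase-like protein Ym1, was 0.684, 0.611, 0.339 and 0.619 CPM in wild type and 1.76, 1.58 and 1.68 CPM in the knockout. All 3 knockout libraries lay far above the highest wild-type library and close to each other. The rise was 2.95-fold (log2 change 1.56, SE 0.29, adjusted p = 0.00141, edgeR), and it rests on 90 counts over the 4 wild-type and 161 over the 3 knockout libraries. Chil3 also marks monocytes and neutrophils. Its near-identical neighbour Chil4 shares 94.3% of 1540 bases but had 3 counts in all 15 libraries.

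Mgl2, a galactose-binding lectin of alternatively activated macrophages and of some dendritic cells, was 30.5, 33.2, 30.2 and 33.0 CPM in wild type and 25.05, 24.9 and 27.7 CPM in the knockout. The groups were tight and did not overlap (log2 change -0.27, SE 0.09, adjusted p = 0.0332, edgeR). The fall was 1.21-fold, and its call was lost in 5 of 7 fits with 1 library left out (adjusted p 0.0503 to 0.0984). Clec10a, its paralogue, was 25.4, 28.8, 24.6 and 25.5 CPM in wild type and 18.9, 22.0 and 26.8 CPM in the knockout (log2 difference -0.19, adjusted p = 0.235, edgeR). Knockout library 4 reached the wild-type range while libraries 2 and 3 lay below it. The pair is 96.1% identical over 735 bases, so how the counting split shared reads between them is uncertain.

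Retnla, the secreted protein RELM-alpha and a sensitive marker of IL-4 signalling, did not pass. It was 66.2, 54.02, 52.4 and 55.6 CPM in wild type and 60.4, 55.6 and 75.7 CPM in the knockout. Knockout library 4 was the highest of the 7 and the others were interleaved. The log2 difference was 0.18 with an interval of -0.05 to 0.42. Mrc1, the mannose receptor CD206, was 77.1, 104, 72.8 and 97.8 CPM in wild type and 66.4, 83.9 and 85.3 CPM in the knockout, a difference of -0.15 (interval -0.42 to 0.13). Arg1, arginase 1, was near the limit of what was counted, with 66 counts over the 4 wild-type and 23 over the 3 knockout libraries. Its interval, -1.84 to 0.17, leaves a change of either sign undecided at this depth.

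The tissue residence genes did not pass. The haemoglobin scavenger Cd163 and the folate receptor Folr2 differed by -0.05 and -0.14 (intervals -0.30 to 0.20 and -0.38 to 0.10). Lyve1, the hyaluronan receptor of perivascular macrophages, is also made by lymphatic endothelium. It differed by 0.38 (-0.08 to 0.84), and wild-type library 4, at 53.4 CPM, was above every knockout library while the other 3 wild-type libraries were below them.

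The lipid-associated genes split. Gpnmb, a glycoprotein of lipid-laden and lysosome-rich macrophages, was 2.08, 1.95, 1.09 and 1.26 CPM in wild type and 4.13, 3.09 and 4.50 CPM in the knockout. Each knockout library was above each wild-type library, and the rise was 2.48-fold (log2 change 1.31, SE 0.24, adjusted p = 0.00132, edgeR). Cd9, a tetraspanin of lipid-associated macrophages that many other cells carry as well, was 42.8, 37.9, 41.2 and 44.2 CPM in wild type and 24.5, 25.7 and 35.7 CPM in the knockout. The groups were separate, and knockout library 4 was nearest to wild type (log2 change -0.52, SE 0.12, adjusted p = 0.0054, edgeR). Trem2, the lipid-sensing receptor that defines this state, differed by 0.05 with an interval of -0.59 to 0.69. Chil3 and Gpnmb passed in each of the 7 fits with 1 library left out.

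Lists of other genes of the same pathways, together with markers of other cells, were read beside the members. Their counts stand against the 15.3% of all genes that passed higher and the 13.3% that passed lower in inguinal fat, 28.6% in both directions, and nothing is read from a list near these shares. The lists were chosen with earlier results of these data known, so their counts are not an independent test. Of 11 tested genes of CSF1 and IL-34 signal, 3 rose and 2 fell. This list also holds receptors of other colony-stimulating factors, among them Csf2rb and Csf3r. Il34, the second ligand of CSF1R, fell by 0.57 on the log2 scale and the cytokine receptor chain Csf2rb by 0.40, while Csf3r, the receptor for granulocyte colony-stimulating factor, rose by 0.69 (adjusted p = 0.0106, 0.00551 and 0.0331, edgeR). Of 11 genes of IL-4, IL-13 and STAT6 signal, 1 rose and 2 fell: Il13ra1, a chain of the receptor for both cytokines, fell by 0.89 and Klf4, a transcription factor that cooperates with STAT6, by 0.85, while Jak3 rose by 0.35 (adjusted p = 0.0057, 0.000283 and 0.0153, edgeR). Irf4 had the largest difference of this list, -2.49 (SE 0.72), from 183 CPM in wild type to 32.1 CPM in the knockout. It narrowly did not pass (adjusted p = 0.0507, edgeR). Which cells of the whole tissue made Irf4 was not tested. Stat6 differed by 0.09 (adjusted p = 0.473, edgeR) and did not pass. Of 14 other genes tied to alternative activation, 5 fell and none rose (median log2 change -0.22, beside -0.02 over all genes). The largest of the named falls was that of Socs2, a suppressor of cytokine signalling, at 1.35 on the log2 scale, followed by Ear2 at 1.18, Cd209f at 0.88 and Trf, transferrin, at 0.75. Transferrin and Socs2 are made by many cells other than macrophages. Cd209a, also among the 5, is counted again in the dendritic cell list below.

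Of 14 classical activation genes 2 rose and 2 fell. Cxcl9, a chemokine induced by interferon-gamma, fell by 1.59 on the log2 scale (adjusted p = 1.79e-05, edgeR). Of 15 further lipid-associated genes 2 rose and 4 fell. This list also holds lipid-handling genes of adipocytes, at up to 12987 CPM in wild-type inguinal fat. Its counts here and below are therefore not particular to macrophages, and the part of adipocytes in them was not tested. Lipa, lysosomal acid lipase, rose by 0.81, and Spp1, osteopontin, fell by 1.74, so Spp1 went the other way from Gpnmb. Of 14 genes of efferocytosis and complement 3 fell: Gas6 and Pros1, the bridging ligands of MERTK, fell by 0.48 and 0.35 and C4b by 0.55. Of 16 macrophage transcription factors 2 rose and 3 fell, led by Id2, which rose by 0.97. Of 27 further tissue macrophage genes 1 rose and 2 fell, namely Clec4n by 1.21 upward, and Gas7 and Tlr7 by 0.30 and 0.60 downward.

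Marker transcripts of some other cells differed between the same libraries. The summed level of all 38 macrophage genes was 955 to 1147 CPM in inguinal wild type and 911 to 1092 CPM in the knockout, overlapping ranges. Of 8 genes of all leukocytes 0 passed in edgeR (3 at an unadjusted p below 0.05, median -0.35), and their sum was 136 to 174 and 106 to 149 CPM. Markers of B cells summed to 12.4 to 22.4 CPM in wild type and 5.17 to 14.6 CPM in the knockout, and 2 of 8 fell. Mast cell markers rose in 5 of 7 tested, from 58.9 to 68.5 CPM summed in wild type to 112 to 127 CPM. Neutrophil markers rose in 2 of 5 tested, from 4.13 to 5.47 CPM to 6.48 to 6.93 CPM, and Ly6g was at 0 in wild type. Skeletal muscle markers fell in 7 of 8, from 115 to 326 CPM to 34.5 to 39.1 CPM. Of 10 monocyte markers Chil3 itself rose, S100a4 fell by 0.86 and Ccl9 by 0.52. Of 10 dendritic cell markers 2 fell, of 8 of blood vessel endothelium 5 fell, and of 8 of brown adipocytes 4 rose. Of 9 T cell markers 0 passed, and 0 had an unadjusted p below 0.05 (edgeR). The part of these other cells in the changes of Chil3, Itgam, Ccr2 and Cd9 was not tested.

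**Figure D3:**
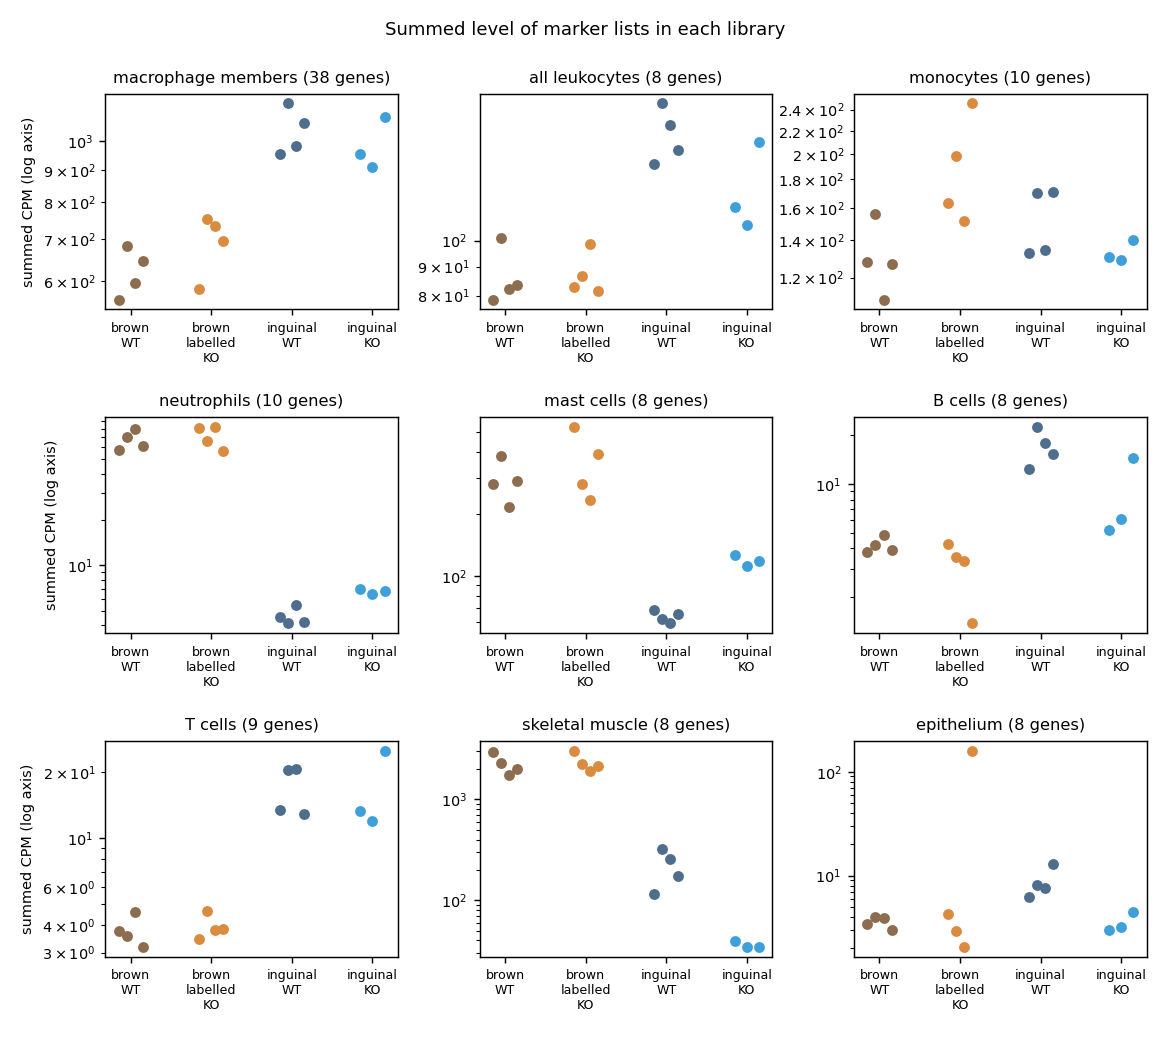
Summed TMM-scaled CPM of each marker list (y axis, log scale) in every library of the 4 groups. The macrophage genes overlap between inguinal wild type and knockout, mast cell and neutrophil sums are higher and the muscle sum lower in the inguinal knockout, and 1 labelled knockout brown library reaches 159 CPM of epithelial markers.

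In newborn brown fat no macrophage gene passed between labelled knockout and wild type. The largest differences were higher Gpnmb and Cd14 and lower Timd4, Cx3cr1 and Marco in the labelled knockout. The C1q chains and Mertk were higher in 3 of the 4 labelled knockout libraries, and library 1 stayed with wild type. Retnla and Arg1 were too low to test.

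Of the 36 members tested in brown fat 0 passed in edgeR, where 0.260% of 15796 genes did (0.184% higher, 0.0760% lower). At an unadjusted p below 0.05 there were 10 members (5 higher, 5 lower), beside 18.5% of all genes. DESeq2 called 3 members (Cd14, Gpnmb and Mertk, with 6.81% of all genes called) and limma-voom with library quality weights called 12 (19.6% of all genes). The median log2 change of the members was 0.13, beside 0.01 over all genes. For 25 members the 95% interval lay within 1 log2 unit of no change, and for the other 11 it reached further. The groups did not overlap for 4 members, Cd14 and Gpnmb higher and Timd4 and Cx3cr1 lower, against 9.60% of all genes.

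The outcome turned on labelled knockout library 1. Without it 10 of the 36 members passed in edgeR, 8 higher and 2 lower, where 18.1% of all genes passed (9.66% higher, 8.41% lower). Higher were Gpnmb (log2 change 2.23), Cd14 (1.07), Cd163 (0.80), C1qb (0.61), C1qa (0.59), C1qc (0.57), Mertk (0.56) and Cd68 (0.50). Lower were Timd4 (-1.45) and Cx3cr1 (-1.38), all with adjusted p from 0.00486 to 0.0259 in edgeR. Leaving out any other brown library gave 0 calls. Library 1 had the lowest Il33 of the labelled knockout group (0.408 CPM). The Il33 log2 difference was -1.08 with library 1 and -0.82 without it, where it did not pass either (adjusted p = 0.15, edgeR). The libraries kept include library 4, which held 159 CPM of summed epithelial markers. Library 1 had the lowest summed adipocyte (10609 CPM) and brown adipocyte markers (3904 CPM) of all brown libraries. Its summed markers of fibroblasts and progenitors were the highest (7669 CPM). The part of this in the calls was not tested. The labels give no reason to drop library 1, so both readings are given.

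**Figure D4:**
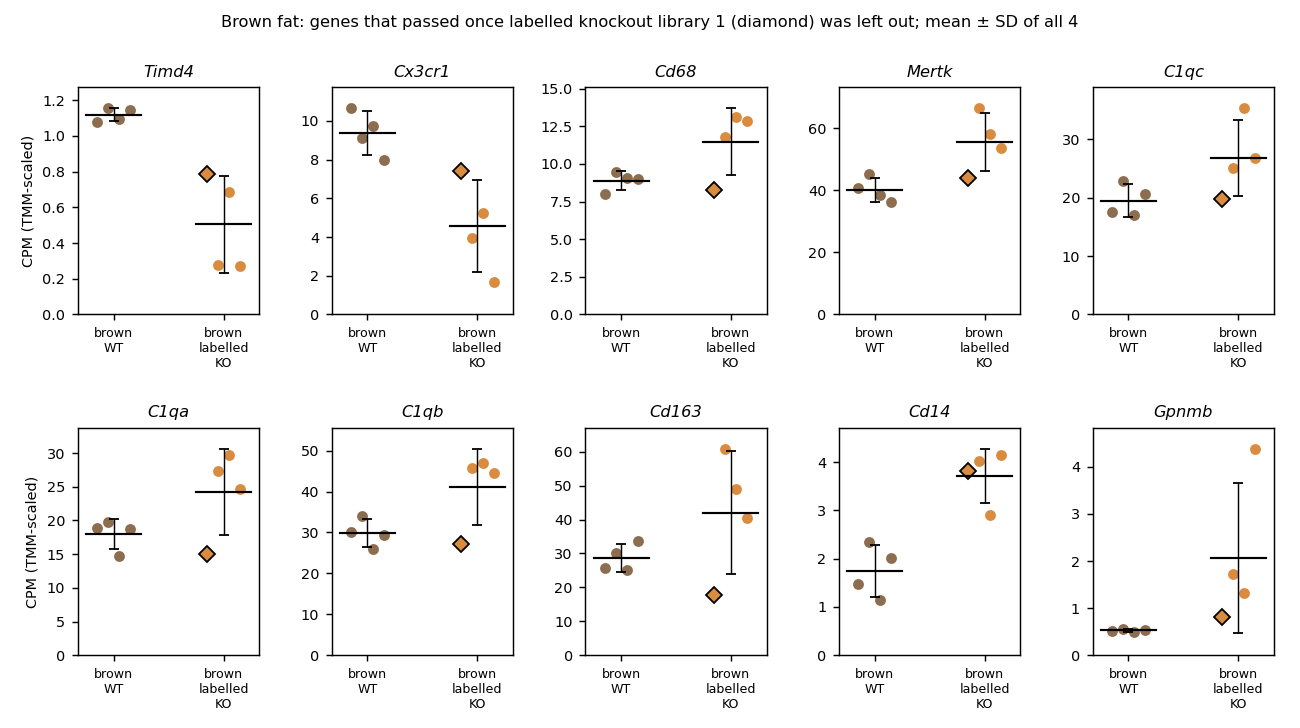
Level of the 10 members that passed once labelled knockout library 1 (diamond) was left out, in each brown library (y axis, TMM-scaled CPM from 0), with the mean and SD of all 4 libraries of each group. For the C1q chains, Cd68 and Cd163 library 1 lies within or below wild type while the other 3 lie above it, and for Cd14 it lies with the other 3.

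The C1q chains showed this most plainly. C1qa was 18.8, 19.8, 14.8 and 18.7 CPM in wild-type brown fat and 15.1, 27.3, 29.8 and 24.7 CPM in labelled knockout libraries 1 to 4. C1qb was 30.1, 34.1, 25.9 and 29.3 CPM and 27.3, 45.8, 47.0 and 44.6 CPM. C1qc was 17.6, 22.9, 17.0 and 20.5 CPM and 19.8, 25.1, 35.3 and 26.8 CPM. For each chain libraries 2 to 4 lay above all of wild type and library 1 did not. With all libraries the log2 differences were 0.42, 0.46 and 0.45 (adjusted p = 0.292, 0.201 and 0.215, edgeR). Without library 1 they were 0.59, 0.61 and 0.57 (adjusted p = 0.0118, 0.00486 and 0.0259).

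Cd163 repeated that pattern at 25.7, 30.2, 25.03 and 33.6 CPM in wild type and 17.7, 60.9, 49.2 and 40.4 CPM in the labelled knockout. Library 1 was the lowest of the 8 and library 2 the highest. Its log2 difference was 0.55 (adjusted p = 0.372) with all libraries and 0.80 (0.00781) without library 1, both in edgeR. Mertk was 40.6, 45.3, 38.6 and 36.2 CPM in wild type and 43.9, 66.5, 58.2 and 53.5 CPM in the labelled knockout. Library 1 lay inside the wild-type range and the other 3 above it (log2 change 0.47, SE 0.14, adjusted p = 0.138, edgeR). Cd68 was 7.995, 9.45, 9.09 and 8.99 CPM and 8.25, 11.8, 13.1 and 12.8 CPM, again with library 1 inside the wild-type range.

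For Cd14, library 1 lay with the other 3 of its group. It was 1.49, 2.34, 1.15 and 2.01 CPM in wild-type brown fat and 3.81, 4.02, 2.90 and 4.14 CPM in the labelled knockout, and all 4 labelled knockout libraries lay above wild type. The difference was 2.12-fold (log2 change 1.08, SE 0.26, adjusted p = 0.0969, edgeR), the lowest adjusted p among the members in brown fat. Gpnmb was 0.513, 0.563, 0.489 and 0.538 CPM in wild type and 0.817, 1.72, 1.31 and 4.39 CPM in the labelled knockout. All 4 were above wild type, where the libraries hardly varied, and library 4 was far above the other 3 (log2 change 1.96, SE 0.49, adjusted p = 0.106, edgeR). Library 4 also held 159 CPM of summed epithelial markers against 4.25 CPM or less in the other brown libraries. The part of this in its Gpnmb level was not tested. Nor was it tested for other members, such as Cx3cr1, Csf1r and Lyz2, for which library 4 was the lowest brown library.

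On the lower side, Timd4 was 1.08, 1.16, 1.09 and 1.15 CPM in wild type and 0.789, 0.276, 0.684 and 0.271 CPM in the labelled knockout. The groups did not overlap, on 166 and 74 counts in all (log2 change -1.15, SE 0.37, adjusted p = 0.157, edgeR). Cx3cr1 was 10.7, 9.12, 9.72 and 8.01 CPM and 7.40, 3.93, 5.23 and 1.70 CPM, also without overlap, with library 4 the lowest (log2 change -1.04, SE 0.36, adjusted p = 0.175, edgeR). Marco was 1.05, 1.096, 0.345 and 0.562 CPM in wild type and 0.245, 0.399, 0.438 and 0.419 CPM in the labelled knockout, where wild-type library 3 lay within the other group (log2 difference -1.02, adjusted p = 0.228, edgeR). Ccr2 was 2.67, 3.85, 2.85 and 1.94 CPM and 1.55, 1.07, 3.28 and 1.06 CPM (log2 difference -0.70, interval -1.56 to 0.15). Labelled knockout library 3 lay inside the wild-type range of Ccr2 and the other 3 below it.

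The other members did not pass without library 1 either. Csf1r was 40.1, 43.9, 47.8 and 50.6 CPM in wild type and 38.4, 36.5, 42.8 and 29.6 CPM in the labelled knockout, and Lyz2 was 49.8, 59.3, 48.0 and 52.9 CPM and 42.5, 37.5, 50.3 and 24.1 CPM. Labelled knockout library 4 was the lowest of the 8 for both, and their log2 differences were -0.31 and -0.45 (adjusted p = 0.232 and 0.251, edgeR). Among the alternative activation genes, Mrc1 differed by 0.15 (interval -0.17 to 0.48), Clec10a by 0.15 (-0.52 to 0.82), Mgl2 by -0.20 (-0.76 to 0.35) and Chil3 by 0.53 (-0.09 to 1.15). Retnla had 17 counts over the 4 wild-type and 25 over the 4 labelled knockout libraries, and Arg1 had 42 and 23. Lyve1 differed by 0.55 and Folr2 by -0.16. Of Spi1, Maf, Csf1, Adgre1, Itgam, Aif1, Tyrobp, Ms4a7, Ctss, Lgmn, Fcgr1, Fcgr3, Msr1, Trem2, Cd9 and Itgax, none reached an unadjusted p below 0.05 with all 8 libraries. Without library 1, Itgam and Msr1 did, and neither passed after adjustment (adjusted p 0.132 and 0.112, edgeR).

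The pathway lists gave 0 calls each in brown fat by edgeR. At an unadjusted p below 0.05, which 18.5% of all genes reached, there were 5 of 10 tested genes of IL-4, IL-13 and STAT6 signal and 3 of 11 of CSF1 and IL-34 signal. There were 5 of 14 of the further lipid-associated genes, 0 of 10 of the other alternative activation genes and 4 of 16 of the macrophage transcription factors. Of classical activation genes there were 4 of 15, of efferocytosis and complement genes 3 of 15, and of further tissue macrophage genes 4 of 27. The summed macrophage genes were 561 to 682 CPM in wild-type and 583 to 752 CPM in labelled knockout brown fat, with library 1 the lowest of its group. Leukocyte markers summed to 78.7 to 101 CPM and 81.4 to 98.5 CPM. Mast cell markers ranged from 218 to 382 CPM in wild type and reached 530 CPM in labelled knockout library 1, the library that stood apart.

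Whether the change from wild type to the group labelled IL-33-/- differed between the depots was tested as the inguinal log2 change minus the brown one, in 1 fit of all 4 groups. Of 38 members 1 passed in edgeR, where 9.0% of all 16858 genes tested did (4.80% with a higher, 4.20% with a lower inguinal effect). The 38 include Retnla and Arg1, which were too low to test in brown fat alone. Their wide intervals, -1.9 to 1.1 and -1.8 to 1.8, leave a difference between depots undecided. At an unadjusted p below 0.05 there were 5 members, beside 25.7% of all genes. DESeq2 called 1 member (13.9% of all genes) and limma-voom 6 (21.7%). The member that passed in edgeR was Cd14, whose difference was -1.58 (SE 0.32, adjusted p = 0.00733). Its levels were lower in the inguinal knockout and higher in the brown labelled knockout than in their wild types, but in this fit of all 4 groups the inguinal change of Cd14 on its own did not pass (adjusted p = 0.167). The median over the members was -0.30, beside -0.07 over all genes. Chil3 (1.02, adjusted p = 0.112), Cd9 (-0.70, 0.12) and Mertk (-0.49, 0.0998) did not pass. For Gpnmb the inguinal change was 1.31 and the brown one 1.96, and the difference between them, -0.67, had an interval of -1.91 to 0.56. For Cx3cr1 the changes were -0.87 and -1.04, with a difference of 0.15 (-0.89 to 1.19). Without brown labelled knockout library 1, 6 members passed: Cd14, Itgam, Cd163, C1qb and Mertk with a lower and Timd4 with a higher inguinal than brown effect. In brown fat alone, leaving that library out took the share of all genes that passed from 0.260% to 18.1%. The share for the difference without it is not given here, so nothing is read from these 6 as a group.

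Between the wild types at least 1 macrophage gene of every role passed. In newborn brown fat most were lower than in inguinal fat at day 24, and the alternative activation genes Retnla, Mgl2 and Clec10a were lower by the widest margins along with Timd4, Cd14 and Ccr2. Cx3cr1, Chil3 and Mertk were higher in brown fat. Of the 38 members 25 passed in edgeR (65.8%), 3 higher and 22 lower in brown fat, where 61.4% of all 15979 genes passed (30.7% in each direction). The median log2 difference was -0.74, beside 0.01 over all genes, and 25 members did not overlap, against 56.0% of all genes. At an unadjusted p below 0.05 there were 27 members (65.2% of all genes). DESeq2 and limma-voom each called 26 members, with 62.5% and 62.7% of all genes called. This comparison uses the same wild-type libraries as those above. All 8 genes of all leukocytes were also lower in brown fat (78.7 to 101 against 136 to 174 CPM summed). The part of leukocyte content in the lower macrophage genes was not tested.

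**Figure D5:**
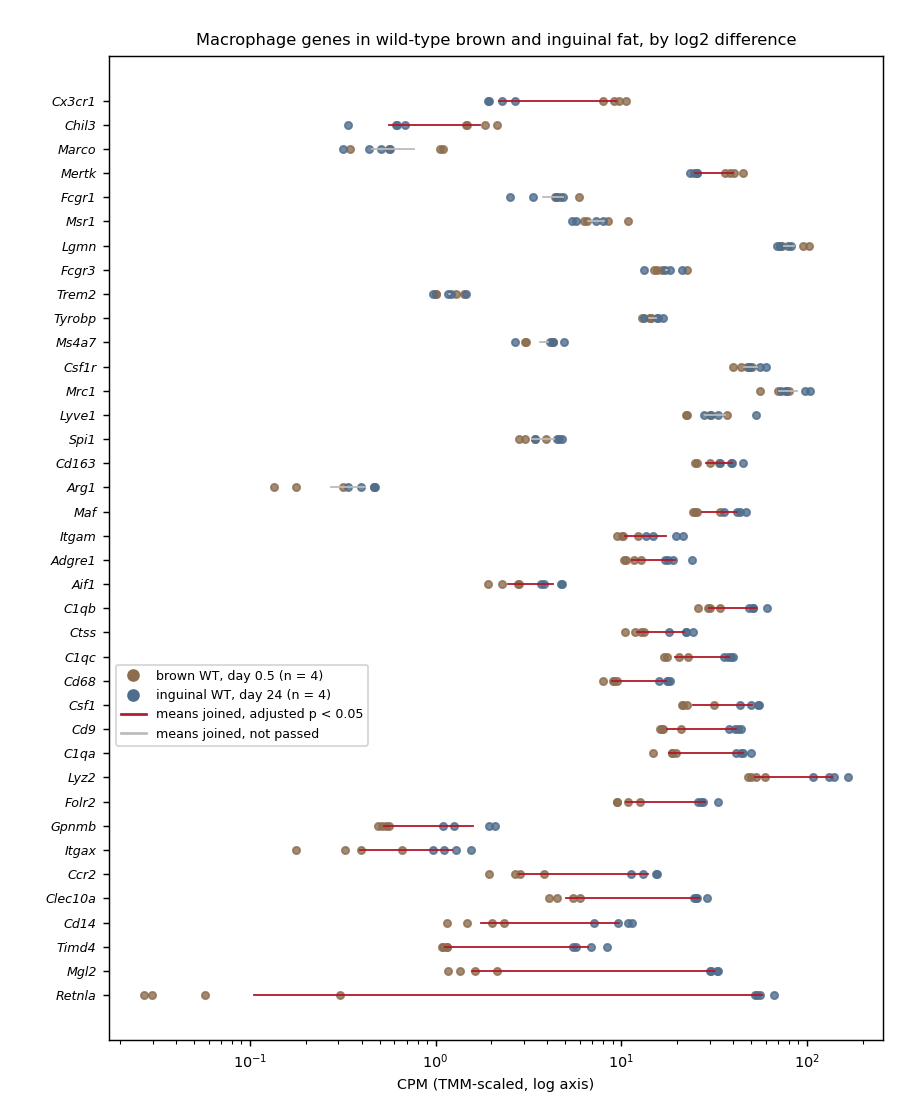
Level of each macrophage gene in the 4 wild-type brown and 4 wild-type inguinal libraries (x axis, TMM-scaled CPM on a log scale), ordered by log2 difference, with a line joining the group means. Of 38 genes 25 passed in edgeR (red lines), from Cx3cr1, higher in brown fat, to Retnla, which reached at most 0.304 CPM in brown fat and at least 52.4 CPM in inguinal fat.

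Retnla differed most. It was 0.0270, 0.0296, 0.0575 and 0.304 CPM in wild-type brown libraries and 66.2, 54.02, 52.4 and 55.6 CPM in wild-type inguinal ones, on 17 and 8819 counts. The log2 difference was -8.91 (SE 0.32, adjusted p = 2.16e-08, edgeR). Brown library 4, with 13 of the 17 counts, was the highest of its group and still far below inguinal fat. Mgl2 was 1.62, 2.13, 1.35 and 1.17 CPM and 30.5, 33.2, 30.2 and 33.0 CPM, a 20.1-fold difference (log2 difference -4.33, SE 0.16, adjusted p = 2.28e-09, edgeR). Clec10a was 4.08, 5.48, 4.52 and 5.99 CPM and 25.4, 28.8, 24.6 and 25.5 CPM, 5.14-fold (log2 difference -2.36, SE 0.13, adjusted p = 3.86e-08, edgeR). Neither gene overlapped between the depots. Chil3 went the other way, from 1.73 ± 0.320 CPM in brown to 0.563 ± 0.153 CPM in inguinal fat (log2 difference 1.60, SE 0.26, adjusted p = 0.000221, edgeR). Neutrophil markers were higher in brown fat too, in 7 of 8 tested, at 57.4 to 79.3 CPM against 4.13 to 5.47 CPM summed. Mrc1 (-0.30, adjusted p = 0.0861) and Arg1 (-0.58, 0.224) did not pass, so the 6 alternative activation genes comprised 3 lower, 1 higher and 2 not passed.

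The remaining members divided by role. Both chemokine receptors passed in opposite directions: Ccr2 was 4.87-fold lower in brown fat (log2 difference -2.28, SE 0.20, adjusted p = 1.52e-06, edgeR), and Cx3cr1 was 4.33-fold higher (log2 difference 2.12, SE 0.16, adjusted p = 5.21e-07, edgeR). Timd4 was 5.83-fold lower (log2 difference -2.54, SE 0.18, adjusted p = 2.71e-07, edgeR) and Cd14 5.49-fold lower (log2 difference -2.46, SE 0.23, adjusted p = 2.79e-06, edgeR). Mertk was 1.63-fold higher (log2 difference 0.71, SE 0.08, adjusted p = 2.02e-05, edgeR), while the Fc receptors, Msr1 and Marco did not pass. All 3 C1q chains were lower, with log2 differences of -1.31 for C1qa, -0.81 for C1qb and -0.95 for C1qc. Of 10 core genes 7 were lower, from Itgax (-1.62) and Lyz2 (-1.37) to Itgam (-0.71), and Tyrobp, Ms4a7 and Lgmn did not pass. Csf1 was lower (-1.05), as was Maf (-0.62), while Csf1r (-0.22, adjusted p = 0.0614) and Spi1 (-0.38, 0.065) did not pass. Folr2 (-1.40) and Cd163 (-0.44) were lower and Lyve1 was not called. Gpnmb (-1.58) and Cd9 (-1.22) were lower and Trem2 was not called (-0.02).

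The pathway lists went mostly the same way between the wild types. Of 11 genes of IL-4, IL-13 and STAT6 signal 8 were lower in brown fat and 0 higher (median log2 difference -0.58, beside 0.01 over all genes), among them Il4ra, the shared receptor chain of both cytokines (-1.29, adjusted p = 6.25e-07, edgeR). Of 15 other alternative activation genes 11 were lower and 1 higher (median -1.68): Cd209f differed by -4.57 and Ear2 by -3.65, while Retnlg, a relative of Retnla made by neutrophils, was higher (5.79). Of 15 further lipid-associated genes 11 were lower and 1 higher, of 14 classical activation genes 10 and 1, of 16 macrophage transcription factors 10 and 2, and of 27 further tissue macrophage genes 18 and 3. Of 15 genes of efferocytosis and complement 8 were lower and 2 higher, and of 11 genes of CSF1 and IL-34 signal 5 and 2.

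Levels of different genes can be set side by side only per length of transcript. As CPM per kilobase of merged exons, wild-type inguinal fat was led by Lyz2 at 104 and Retnla at 95.2, followed by C1qb at 48.8, C1qa at 43.5, Lgmn at 37.4 and Cd9 at 33.8. Wild-type brown fat was led by Lgmn at 42.3, Lyz2 at 39.9, C1qb at 27.5 and Tyrobp at 24.9. Retnla was at 0.175 there, among the lowest of the 38 with Itgax (0.0901), Gpnmb (0.117) and Arg1 (0.186). Lyz2 is 95.8% identical to Lyz1 over 1264 bases and Fcgr3 96.5% identical to Fcgr2b over 509 bases, and how the counting split shared reads is uncertain. The same holds for Folr2, which is identical to Gm10602 over 475 bases. The exons of Itgam overlap those of the predicted gene Gm49368 on the same strand. That gene is not among those counted, so no reads were split with it. Csf1r overlaps Hmgxb3 on the other strand, and Cd9 and Cx3cr1 overlap predicted genes there. The library kit keeps strand, but no source used here says whether the counting used it, so reads from such pairs may not have been told apart.

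The sequence before the start of the members was searched for 3 short motifs, because the C1q chains were read together above and Retnla and Mgl2 differed most between depots. RefSeq (GRCm38.p6) gave windows of 300 bases, from 250 before to 50 after the start, for 27 of the 38 members. The 11 without a window, and so not searched, were C1qa, Arg1, Clec10a, Spi1, Maf, Csf1r, Adgre1, Tyrobp, Cd14, Msr1 and Lyve1. The core of the PU.1 site, GAGGAA, was found on either strand in 15 of 31 member windows (48.4%) and in 28.3% of all 32851 windows. By gene, 14 of the 27 members had a match, since the windows of Fcgr3 overlap and hold the same one. The spacing bound by STAT6, which is TTC, then 4 bases of any kind, then GAA, was found in 3 of 31 (Itgax, Ms4a7 and Retnla) and in 6.95% of all windows. The M-box TCATGTG, which MITF and TFEC can bind, was found in 4 of 31 (C1qb, C1qc, Ctss and Ms4a7) and in 3.77% of all windows. Each motif was searched on both strands, and the matches shown do not overlap each other. A match is a run of letters and was not shown to be a bound site.

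The 250 bases before the start are shown for 5 members, 5′ to 3′ on the strand of the gene, with capitals for the motifs searched. C1qb and C1qc are shown because both hold a PU.1 core and an M-box, Retnla and Mgl2 because they differed most between depots, and Chil3 because it rose most in the inguinal knockout. C1qb (chr4:136886201-136886450, minus strand) has the M-box at position -231 from the start and the PU.1 core at -30. C1qc (chr4:136892915-136893164, minus strand) has the PU.1 core at -193 and the M-box at -178, both as their reverse complements. Retnla (chr16:48842359-48842608, plus strand) has the PU.1 core as its reverse complement at -196 and the STAT6 spacing at -145. Mgl2 (chr11:70130107-70130356, plus strand) has the PU.1 core at -225, and Chil3 (chr3:106167565-106167814, minus strand) has none of the 3.
C1qb: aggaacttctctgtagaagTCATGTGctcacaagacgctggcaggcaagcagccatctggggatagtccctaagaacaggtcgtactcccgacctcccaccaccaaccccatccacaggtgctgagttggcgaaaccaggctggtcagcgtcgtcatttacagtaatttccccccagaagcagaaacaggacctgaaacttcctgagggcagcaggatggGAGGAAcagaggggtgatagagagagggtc
C1qc: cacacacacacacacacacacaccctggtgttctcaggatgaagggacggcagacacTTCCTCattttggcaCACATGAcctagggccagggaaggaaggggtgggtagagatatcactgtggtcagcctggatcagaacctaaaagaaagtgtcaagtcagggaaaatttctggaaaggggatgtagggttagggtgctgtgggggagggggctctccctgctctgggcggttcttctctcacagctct
Retnla: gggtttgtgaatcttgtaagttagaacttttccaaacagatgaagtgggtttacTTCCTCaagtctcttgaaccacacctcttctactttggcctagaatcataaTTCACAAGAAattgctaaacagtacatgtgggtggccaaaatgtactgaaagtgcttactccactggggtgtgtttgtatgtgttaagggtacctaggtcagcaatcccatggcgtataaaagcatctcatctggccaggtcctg
Mgl2: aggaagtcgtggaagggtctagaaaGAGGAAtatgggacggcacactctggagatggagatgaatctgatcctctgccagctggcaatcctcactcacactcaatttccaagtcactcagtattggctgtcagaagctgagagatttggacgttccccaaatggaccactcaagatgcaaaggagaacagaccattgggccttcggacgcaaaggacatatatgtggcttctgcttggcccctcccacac
Chil3: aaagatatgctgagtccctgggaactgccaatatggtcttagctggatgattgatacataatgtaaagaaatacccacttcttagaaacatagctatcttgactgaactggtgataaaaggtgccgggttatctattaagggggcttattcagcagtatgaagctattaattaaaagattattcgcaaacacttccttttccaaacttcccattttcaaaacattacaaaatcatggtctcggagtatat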

How the data were processed

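Per the labels' protocols, whole tissue was lysed in TRIsure, RNA was purified on columns, and libraries were made with Illumina's stranded TruSeq mRNA kit. Per the submitters' processing notes, the tools were TopHat2 2.1.0, Subread with featureCounts, and edgeR, and the build was mm9. The deposited table holds raw counts per Ensembl gene, which the authors did not normalize. No source used here names the annotation release, or says whether reads were counted by strand. Symbols were found for 32919 of 37991 gene identifiers, and 0 columns belonged to no sample. Total counts per library were 31661512 to 41926108 in wild-type and 33782634 to 40802095 in labelled knockout brown fat, and 26059635 to 53923009 and 30835337 to 38765633 in wild-type and knockout inguinal fat. This depth limits genes with few counts, such as Arg1.

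From these counts, each comparison within a tissue was fitted on its own groups with edgeR 4.0.16 (R 4.3.3): filterByExpr at a minimum count of 10, TMM factors, robust quasi-likelihood F-test, and Benjamini-Hochberg adjustment over all genes tested. The difference between depots came from all 4 groups in 1 fit. CPM values use TMM factors over all 15 libraries. Every member was reported by its role, and from each other list at most the 4 genes of smallest p were named, with Stat6 added after its values were seen. Alternatives used DESeq2 1.42.0, limma-voom 3.58.1, other filters and left-out libraries. The scripts were tested on simulated counts. Copies were sought with blastn 2.17.0 among GENCODE M21 transcripts of GRCm38, and merged exons of that annotation gave the lengths. The members and lists were chosen with earlier results of these data known.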

Additional observations from a re-analysis of the deposited data

Results flagged for a closer look

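The change of Cd14 from wild type to the group labelled IL-33-/- differed between the depots, with an inguinal minus brown log2 difference of -1.58 in edgeR's test of the difference itself. The inguinal change on its own did not pass in that fit of all 4 groups (adjusted p 0.167).

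Among 114 groups of 4 libraries, each the values of 1 gene in 1 group, 8 had a library far from the other 3 by Dixon's criterion, where chance gives about 1 in 20. Wild-type brown library 2 was high for Maf (33.8 CPM against 24.3 to 25.6), Csf1 (31.5 against 21.2 to 22.7) and Cd9 (20.9 against 16.2 to 16.7). Wild-type brown library 1 was low for Tyrobp (12.99 CPM against 14.3 to 14.5), and library 4 was high for Retnla (0.304 against 0.0270 to 0.0575). Labelled knockout brown library 1 was low for C1qb (27.3 CPM against 44.6 to 47.0) and Msr1 (6.81 against 10.9 to 11.6), and library 4 was low for Itgax (0.172 against 0.463 to 0.522).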

How the results depend on the processing

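The count of members that passed in inguinal fat, 9, became 5 of 27 tested with a filter at 5 CPM, which removes the low genes Chil3, Gpnmb, Aif1 and Cx3cr1 from the test, and 2 (Chil3 and Gpnmb) with all 4 groups in 1 fit, where the cause was not tested. It ranged from 4 to 10 with 1 library left out: 4 without knockout library 3, and 5 without wild-type library 2 or 3. In brown fat the count of 0 became 3 with DESeq2 (6.81% of all genes) and 12 with limma-voom and quality weights (19.6%). It became 4 with all 4 groups in 1 fit. It ranged from 0 to 10 with 1 library left out, and only the fit without labelled knockout library 1 gave any (18.1% of all genes). The difference between depots, 1 member, became 6 with limma-voom (21.7% of all genes). That count ranged from 1 to 6 with 1 library left out, again 6 without labelled knockout library 1. The wild-type count of 25 stayed between 20 and 27. A count in this section without a share of all genes beside it is not read as a result about the members. Same-numbered libraries did not deviate together in every pair (correlations from -0.13 to 0.211), so the numbers were not treated as pairs. With the replicate number as a block, 7 members passed in inguinal fat, 0 in brown fat, 1 for the difference and 26 between the wild types. In inguinal fat Cd14 (adjusted p 0.103) and Mgl2 (0.0825) lost their calls under the block (edgeR). Of 2543 values of single members under the alternatives, 2454 stayed on the same side of the threshold, 56 came to pass and 33 ceased to pass. Of the 2454, 78 changed sign, in members that passed in neither fit, and no member that passed in either did. Members of few counts (Arg1, Marco, Itgax, and Retnla in brown fat) are limited by depth.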
